A study of Mus musculus with 9 samples.

Results

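The genes described here are Fn1, Sparc, Tnc, Postn, Vcan, Dcn, Lum, Bgn, Has2 and Cd44, which are 10 of the 56289 genes in the deposited gene table. They were chosen by name, as matrix glycoproteins, proteoglycans, a hyaluronan synthase and a hyaluronan receptor, and were matched by symbol and Ensembl gene identifier. This choice, and that of the gene lists further below, was made with earlier results of these data known. The shares called among these genes and lists are therefore descriptions and test nothing about the sets. For Fn1, Vcan and Cd44 the deposited transcript table was read as well.

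Fibronectin (Fn1), tenascin-C (Tnc), periostin (Postn) and SPARC (Sparc) are secreted glycoproteins that cells attach to or that change how cells attach. Versican (Vcan), decorin (Dcn), lumican (Lum) and biglycan (Bgn) are proteoglycans, core proteins that carry or can carry glycosaminoglycan chains. Hyaluronan is a glycosaminoglycan without a core protein; synthases such as Has2 make it at the cell surface, versican binds it in the matrix and Cd44 is its best known receptor. Tenascin-C and biglycan are also known as ligands of Toll-like receptors, and tenascin-C and fibronectin are abundant in the inflamed joint lining of rheumatoid arthritis.

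The study examined how WBT, an extract of the Wang Bi tablet that is given against rheumatoid arthritis, acts on cells stimulated with TNF-α. Poly(A) RNA was sequenced from cultures labelled as the mouse macrophage-like line RAW264.7, strain BALB/c, in 3 groups of 3 libraries that the paper calls biological replicates. Con was untreated, TNF-α received the human form of that cytokine for 24 h, and TNF-α+WBT received the cytokine together with the extract for 24 h. The labels name the last treatment WBP, which was taken to be WBT, and no group received the extract without TNF-α.

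Values are the FPKM that the authors computed, fragments divided by transcript length and by the fragments mapped in the library. The depth was estimated from the steps between low values, as 20220000 to 26050000 fragments in the Con libraries, 18880000 to 22420000 in TNF-α and 16840000 to 19800000 in TNF-α+WBT. A gene entered the test if 3 or more libraries had it above 0 FPKM. The test was limma on the log2(FPKM + 0.1) scale, and a gene is called here when its Benjamini-Hochberg adjusted p over all 25417 tested genes was under 0.05. Positions are those of GENCODE M21 on GRCm38, and the build that the authors used was not given in the sources used here.

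The labelled cell type was checked against its markers first. Of 18 macrophage markers, 17 were in the table and 1 (Cd14, mean 5.25 FPKM) lay above 1 FPKM in all 9 libraries. The defining genes Adgre1, Itgam, Ptprc and Spi1, with Ctss, Cybb and Tyrobp, were at 0 throughout, and the summed level of the list was 6.30 to 8.89 FPKM. These values go against the label macrophage, so the samples are called by their treatment below. Of 16 fibroblast markers, with the genes described here left out, 11 lay above 1 FPKM in all libraries, led by S100a4 at 1177 FPKM, while Tcf21 was listed at 0. The Schwann cell and neural crest list had 8 of 12 genes above that level. In the list for smooth muscle and myofibroblasts 2 of 7 were above it, led by Acta2 at 30.7 FPKM, and in the list for cartilage and bone 2 of 9, led by Runx2 at 14.4 FPKM, with Acan, Matn1 and Ibsp at 0. None of 8 endothelial and none of 8 epithelial markers was above it; the leading genes were Vwf at 0.165 FPKM and Krt8 at 0.736 FPKM, and Tie1, Emcn and Krt14 were listed at 0. All 12 genes used by every cell were above it, led by Eef1a1 at 5683 FPKM.

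The levels of the 10 genes differed widely. Sparc had the highest mean over the 9 libraries, 1065 ± 48.6 FPKM (SD, n = 9), which ranked 50 among all genes. Fn1 followed at 763 ± 51.9 FPKM, rank 76, and then Postn at 189 ± 40.3 FPKM, rank 264. Each of these glycoproteins lay apart from its neighbour in this order in every library. Tnc had a mean of 42.6 ± 19.1 FPKM and Cd44 one of 37.3 ± 4.30 FPKM, and their order differed between the groups: Tnc was the higher of the pair in every Con library and the lower in every other library. Below them came Bgn at 6.44 ± 0.462 FPKM, Dcn at 2.34 ± 0.601, Vcan at 0.563 ± 0.149 and Has2 at 0.0777 ± 0.0354, none of which overlapped its neighbour. Lum was listed at 0 in all 9 libraries; 3 fragments, the limit that a count of 0 allows, would be 0.047 to 0.0728 FPKM, and limits of this kind cover counting error only. Summed over the 10 genes, the level was 2061 to 2152 FPKM per library, or 0.478% to 0.5% of all FPKM.

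**Figure D1:**
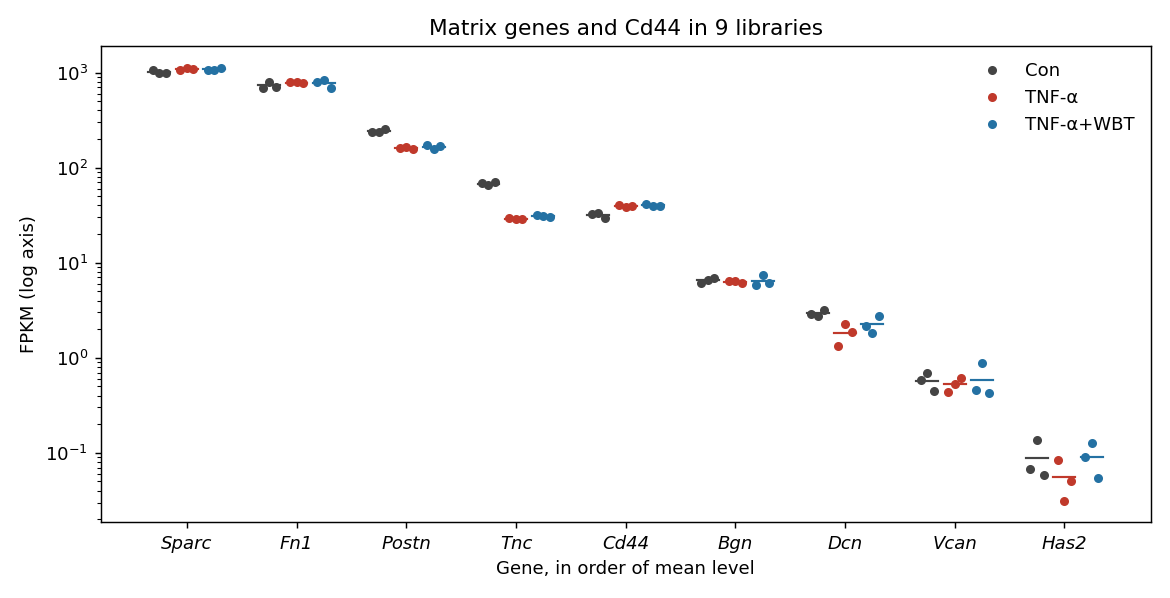
FPKM on a log axis for the 9 genes above 0, with a point for each library and a bar at the mean of each group (n = 3). Tnc lay at 65.3 to 70.6 FPKM in Con and at 29.0 to 31.4 FPKM in the other libraries, while Sparc and Fn1 lay near the top of the plot in every group.

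TNF-α was compared with Con to show what the cytokine does. In this comparison 1236 of 25417 genes were called (4.86%), 746 higher in TNF-α (2.94%) and 490 lower (1.93%). The median log2 fold change over all tested genes was 0.0028. Lum could not be tested, and of the other 9 genes 3 were called: Tnc and Postn were lower and Cd44 was higher. At an unadjusted p under 0.05 the count was 5, where 16.1% of all tested genes passed. Only Tnc also passed the fold change over 2 that the study required, a rule that 615 genes met (2.42%). That number was 128 with a pseudocount of 1, 1057 with 0.01, 207 with a mean of at least 1 FPKM and 335 with protein-coding transcripts summed.

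Tenascin-C is a large, many-armed glycoprotein of wounds and inflamed tissue. Tnc (ENSMUSG00000028364, chr4:63959785-64047015, minus strand) was at 68.3, 65.3 and 70.6 FPKM in Con replicates 1 to 3, at 29.3, 29.0 and 29.1 FPKM in TNF-α and at 31.4, 30.7 and 30.0 FPKM in TNF-α+WBT. Every library with TNF-α lay far below every Con library, and the replicates of each group lay close together. The means were 68.1 ± 2.66, 29.2 ± 0.148 and 30.7 ± 0.714 FPKM (SD, n = 3 each), so TNF-α stood at 42.8% of Con and TNF-α+WBT at 45.1%. The log2 fold change of TNF-α against Con was -1.22 (SE 0.04, 95% interval -1.31 to -1.13, adjusted p 8.143e-07 by limma), and that of TNF-α+WBT against Con was -1.15 (adjusted p 1.768e-06). These comparisons share the Con libraries. Between 3584 and 12637 estimated fragments per library lay behind the level of Tnc. On the opposite strand, 8030451A03Rik shares 176 exon bases with Tnc, 2.26% of its exon bases, and the library kit was not stated to keep the strand; its own level was at most 4.63 FPKM. In bulk samples, fewer cells of a type and less RNA per cell cannot be told apart, for Tnc and for each gene below.

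Periostin is a secreted protein of collagen-rich tissue that binds integrins and tenascin-C. Postn (ENSMUSG00000027750, chr3:54361109-54391037, plus strand) was at 239.5, 235 and 253 FPKM in Con, at 160.4, 165 and 156 FPKM in TNF-α and at 174, 156 and 167 FPKM in TNF-α+WBT. All libraries with TNF-α again lay below all Con libraries, by a smaller step than for Tnc. The means were 242 ± 9.14, 161 ± 4.31 and 166 ± 8.97 FPKM (SD, n = 3 each), which put TNF-α at 66.2% of Con and TNF-α+WBT at 68.3%. The log2 fold change was -0.59 for TNF-α against Con (SE 0.05, adjusted p 0.000176 by limma) and -0.55 for TNF-α+WBT against Con (adjusted p 0.000356).

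Cd44 is the membrane receptor that binds hyaluronan. Cd44 (ENSMUSG00000005087, chr2:102811141-102901665, minus strand) was at 32.7, 33.7 and 29.3 FPKM in Con, at 40.7, 38.6 and 39.1 FPKM in TNF-α and at 41.8, 40.0 and 39.7 FPKM in TNF-α+WBT. Every library with TNF-α lay above every Con library. The means were 31.9 ± 2.29, 39.5 ± 1.10 and 40.5 ± 1.13 FPKM (SD, n = 3 each), and the log2 fold change of TNF-α against Con was 0.31 (SE 0.05, 95% interval 0.18 to 0.43, adjusted p 0.0138 by limma). For TNF-α+WBT against Con the adjusted p was 0.0102. This call was the least firm of the 3: the adjusted p was 0.0764 without the intensity trend of limma and 0.0564 without TNF-α replicate 1, and over all alternatives it ran from 0.00833 to 0.0764. Without the trend the call in TNF-α+WBT against Con was lost too, at an adjusted p of 0.0598.

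Sparc and Fn1, the most abundant of the 10 genes, were not called. SPARC is a calcium- and collagen-binding protein, and Sparc (ENSMUSG00000018593, chr11:55394500-55423183) was at 1055, 997 and 990.0 FPKM in Con, at 1062, 1121 and 1100.1 FPKM in TNF-α and at 1069, 1059 and 1129 FPKM in TNF-α+WBT. All TNF-α libraries lay above all Con libraries, though the closest pair was 1055 and 1062 FPKM. The log2 fold change was 0.11 (SE 0.04, adjusted p 0.261 by limma). Fibronectin is assembled by cells into fibrils that bind integrins, and Fn1 (ENSMUSG00000026193, chr1:71585520-71653200) was at 694, 797 and 708 FPKM in Con, at 787, 789 and 774 FPKM in TNF-α and at 800.3, 831 and 691 FPKM in TNF-α+WBT. The 3 groups overlapped, with a log2 fold change of 0.10 for TNF-α against Con (95% interval -0.08 to 0.27, adjusted p 0.616) that ran from 0.06 to 0.16 with single libraries left out. Apol7d on the opposite strand shares 292 exon bases with Fn1, 2.5% of its exon bases, and reached at most 1.7 FPKM.

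The small leucine-rich proteoglycans Dcn and Bgn bind collagen fibrils and growth factors. Dcn (ENSMUSG00000019929, chr10:97479609-97518143) was at 2.86, 2.75 and 3.21 FPKM in Con, at 1.34, 2.27 and 1.89 FPKM in TNF-α and at 2.17, 1.80 and 2.75 FPKM in TNF-α+WBT. Its TNF-α libraries all lay below its Con libraries, but the spread was wide, and the log2 fold change of -0.68 (SE 0.21, 95% interval -1.16 to -0.20) had an adjusted p of 0.136 by limma. Only 50.8 to 133 estimated fragments per library lay behind these values. Bgn (ENSMUSG00000031375, chrX:73483602-73495933) was at 5.88 to 7.38 FPKM with overlapping groups and a log2 fold change of -0.03 (95% interval -0.25 to 0.18), which was 0.01 without Con replicate 3 and -0.08 without Con replicate 1. Lum (ENSMUSG00000036446, chr10:97565128-97572703), the third gene of this class, is the one listed at 0.

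Vcan and Has2, the hyaluronan-binding proteoglycan and the synthase, were low. Vcan (ENSMUSG00000021614, chr13:89655312-89742509) was at 0.425 to 0.877 FPKM, from 68.9 to 118 estimated fragments. Its log2 fold change of -0.10 had a 95% interval of -0.77 to 0.56. Has2 (ENSMUSG00000022367, chr15:56665627-56694539) was at 0.0315 to 0.137 FPKM, from 3.0 to 12.5 estimated fragments, with a log2 fold change of -0.27 (95% interval -0.81 to 0.28). With single libraries left out it ran from -0.39 to -0.09 for Has2 and from -0.24 to 0.02 for Vcan, and the pseudocount took that of Has2 from -0.04 at 1 to -0.58 at 0.01. The antisense gene Has2os shares 182 exon bases with Has2, 4.3% of its exon bases, and its mean of 0.538 FPKM was above that of Has2.

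TNF-α+WBT was compared with TNF-α to show what the extract adds. Here 1 of 25417 genes was called (0.00393%), March8, which is named after its values were seen and is not a matrix gene. That call was lost with the replicate block, where the count was 0. None of the 9 tested genes was called by limma, and none had an unadjusted p under 0.05, where 1605 of all tested genes did (6.31%). The study's rule was met by 284 genes (1.12%) and by none of the 9; it was met by 8 genes with a pseudocount of 1, 639 with 0.01, 14 with a mean of at least 1 FPKM and 92 with protein-coding transcripts summed. Tnc came closest: its 3 TNF-α+WBT libraries lay above its 3 TNF-α libraries, with a log2 fold change of 0.07 (95% interval -0.01 to 0.16, unadjusted p 0.0841, adjusted p 0.821 by limma). For Postn the log2 fold change was 0.04 (95% interval -0.07 to 0.15) and for Cd44 it was also 0.04 (-0.09 to 0.16). Sparc stood at -0.01 (-0.11 to 0.09) and Fn1 at -0.02 (-0.20 to 0.15). Among the low genes the intervals were wider: Dcn stood at 0.29 (-0.20 to 0.77), Bgn at 0.02 (-0.19 to 0.24), Vcan at 0.08 (-0.58 to 0.74) and Has2 at 0.29 (-0.25 to 0.84). With single libraries left out, these values ran from 0.01 to 0.09 for Postn, 0.01 to 0.06 for Cd44, -0.04 to 0.01 for Sparc and -0.08 to 0.06 for Fn1. They ran from 0.09 to 0.45 for Dcn, -0.07 to 0.09 for Bgn, -0.20 to 0.25 for Vcan and 0.16 to 0.44 for Has2, which was at 0.05 with a pseudocount of 1 and 0.64 with 0.01. With protein-coding transcripts summed, Cd44 was at 0.07, Vcan at 0.02, Bgn at -0.03 and Fn1 at 0.16. The count of genes called in the whole table moved from 0 to 11 when single libraries were left out: it was 0 without Con replicate 2 or TNF-α+WBT replicate 1, 2 without Con replicate 3 or TNF-α replicates 2 or 3, 3 without TNF-α replicate 1, 4 without TNF-α+WBT replicate 3 and 11 without TNF-α+WBT replicate 2. The count among the 9 genes was 0 in each of these fits.

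TNF-α+WBT against Con shares libraries with both other comparisons. It had 942 called genes (3.71%), 586 higher (2.31%) and 356 lower (1.4%), and 588 without Con replicate 3. Tnc, Postn and Cd44 were the 3 called genes here as well, Tnc and Postn lower and Cd44 higher. Sparc had a log2 fold change of 0.10 (adjusted p 0.351) and Dcn one of -0.39 (adjusted p 0.455), which ran from -0.54 to -0.25 with single libraries left out.

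**Figure D2:**
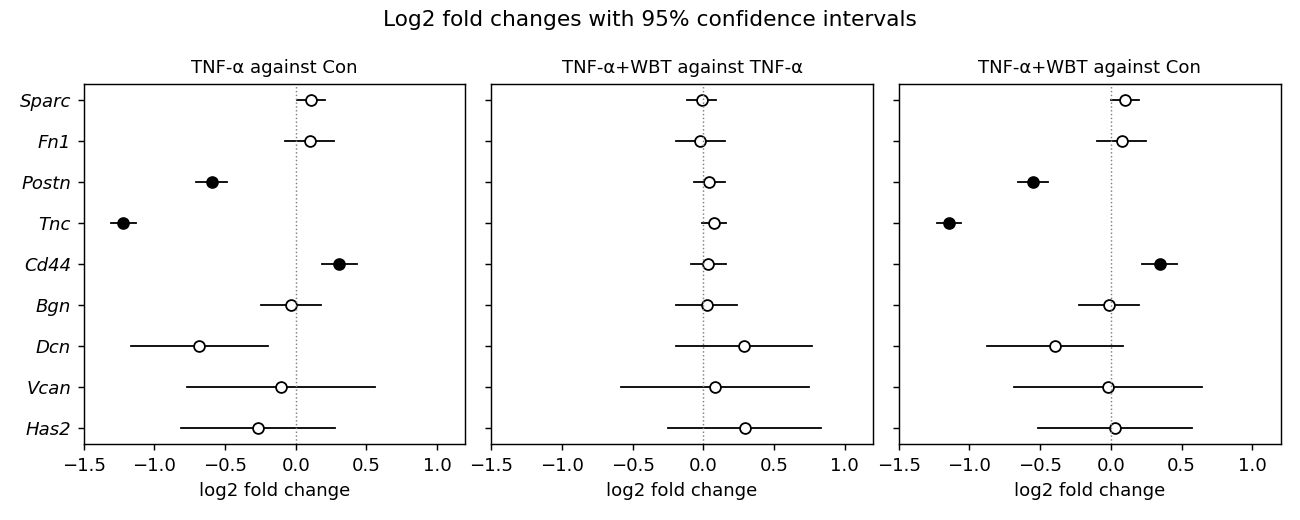
Log2 fold changes with 95% confidence intervals for the 9 tested genes in the 3 comparisons, filled where called. Tnc, Postn and Cd44 are filled in both comparisons with Con, and no gene is filled in the comparison of TNF-α+WBT with TNF-α.

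Marker genes of several cell types moved between the same groups, and their part in the results for Tnc, Postn and Cd44 was not tested. The summed level of the 12 Schwann cell and neural crest markers was 925, 967 and 982 FPKM in Con, 777, 813 and 751 FPKM in TNF-α and 826, 817 and 846 FPKM in TNF-α+WBT. Of the 11 tested, 5 were called lower in TNF-α than in Con: Ngfr, S100b, Erbb3, Foxd3 and Cdh19. For cartilage and bone the sums were 29.1, 28.5 and 31.7 FPKM in Con, 19.5, 17.5 and 18.3 FPKM in TNF-α and 19.8 to 21.8 FPKM in TNF-α+WBT, with Runx2 and Sox9 called lower. In the smooth muscle list, Acta2 was called higher and the sums were 34.4 to 36.2 FPKM in Con, 42.6 to 46.3 FPKM in TNF-α and 38.6 to 42.3 FPKM in TNF-α+WBT. The fibroblast list had 3 genes called higher (Col1a1, Col1a2 and Col6a1) and 1 lower (Pdgfrb), with sums of 3679 to 3978 FPKM in Con, 3999 to 4268 FPKM in TNF-α and 3980.1 to 4040.3 FPKM in TNF-α+WBT. Every fibroblast sum with TNF-α thus lay above every Con sum, though the closest pair was 3978 and 3980.1 FPKM. Neither the endothelial nor the epithelial sum exceeded 1.10 FPKM in any library, and the genes used by every cell summed to 11929 to 12627 FPKM, with 1 of 12, Actb, called higher.

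The transcript table was fitted in the same way. Of 80149 tested transcripts, 509 were called in TNF-α against Con (0.635%), 34 in TNF-α+WBT against TNF-α (0.0424%) and 365 in TNF-α+WBT against Con (0.455%). With the replicate block the number in TNF-α against Con was 209. Shares of a gene's summed transcript FPKM were compared by exact two-sided permutation tests, whose smallest possible p is 0.1 for 3 libraries against 3 and 0.0238 for both TNF-α groups against Con. Of 17 transcripts with a mean of at least 1 FPKM, 13 of Fn1 and 4 of Cd44, none passed an adjusted p of 0.05 in any of the share comparisons. With 3 libraries against 3 none could pass. With the TNF-α groups pooled, adjustment over 17 transcripts allowed a pass only if many of them reached the smallest p together. The absence of a pass therefore does not show that shares were alike. At the unadjusted level 2 of 17 did, both with the TNF-α groups pooled. The shares of Fn1-213 and Fn1-214 were higher than in Con by 0.0614 and 0.0708 percentage points (exact permutation p 0.0476 and adjusted p 0.405 for each). Con replicate 1 had the lowest share of both. Fn1-213 was at 0.2865% there and at 0.3525% and 0.3629% in Con replicates 2 and 3. For Fn1-214 the shares in these 3 Con libraries were 0.2767%, 0.3324% and 0.3517%.

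EDB and EDA are extra domains that some fibronectin transcripts hold and others lack. Each is a single exon that is skipped in the fibronectin of plasma and kept in much of that made by fibroblasts and in wounds. They are not the only difference: Fn1-211, Fn1-213 and Fn1-214, alike in both exons, have 7083, 6798 and 7158 coding bases. All 17 annotated Fn1 transcripts were above 0 in some library. Fn1-201, the full-length form of 8315 bases and 46 exons that holds both exons, was at 239, 278 and 253 FPKM in Con, at 279, 277 and 268 FPKM in TNF-α and at 288, 299 and 338 FPKM in TNF-α+WBT. Of the 6 other full-length coding forms, Fn1-211, Fn1-213 and Fn1-214 hold EDA without EDB and Fn1-203, Fn1-216 and Fn1-217 hold neither, and each averaged 2.57 to 3.42 FPKM. Forms with EDB made up 93.3% to 94.9% of the 7 forms' summed FPKM in the 9 libraries and forms with EDA 96.8% to 97.4%, a measure that was chosen after the values were seen. The shares differed between TNF-α and Con by -0.451 and -0.179 percentage points, less than the spread between Con libraries (SD 0.534 and 0.246), with an exact permutation p of 0.6 for each. With single libraries left out they ran from -0.634 to -0.144 points for EDB and from -0.264 to -0.0384 for EDA.

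Transcripts annotated with a retained intron, which have no coding sequence, carried much of the Fn1 level. They held 60.6% to 63.0% of its transcript FPKM in 8 libraries and 46.9% in TNF-α+WBT replicate 3. The EDB and EDA shares above leave them out. Fn1-202 was at 240.1 to 288 FPKM, and Fn1-215 was at 163 to 194 FPKM in 8 libraries and at 24.0 FPKM in TNF-α+WBT replicate 3. The share of Fn1-215 was accordingly 3.47% in that library and 22.3% to 24.2% in the other 8, and that of Fn1-201 was 49.0% there and 34.4% to 36.1% elsewhere. The difference in the share of Fn1-201 between TNF-α+WBT and TNF-α was 5.30 percentage points with this library and 0.978 without it. For Fn1-215 the difference was -6.68 points with it and -0.131 without it. When only protein-coding transcripts were summed, an alternative chosen after these values were seen, the log2 fold change of Fn1 between TNF-α+WBT and TNF-α was 0.16 in place of -0.02, with neither called.

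The EDB and EDA exons are printed because nearly all FPKM listed for the full-length coding forms of Fn1 was of forms that hold them. They are taken from the GENCODE M21 sequence of Fn1-201, minus strand of GRCm38, with the exon in capitals and 12 bases of each neighbouring exon in lower case. EDB is exon 25 of 46 (chr1:71613763-71614035, 273 bases) and EDA is exon 33 (chr1:71603660-71603929, 270 bases).
Fn1 EDB: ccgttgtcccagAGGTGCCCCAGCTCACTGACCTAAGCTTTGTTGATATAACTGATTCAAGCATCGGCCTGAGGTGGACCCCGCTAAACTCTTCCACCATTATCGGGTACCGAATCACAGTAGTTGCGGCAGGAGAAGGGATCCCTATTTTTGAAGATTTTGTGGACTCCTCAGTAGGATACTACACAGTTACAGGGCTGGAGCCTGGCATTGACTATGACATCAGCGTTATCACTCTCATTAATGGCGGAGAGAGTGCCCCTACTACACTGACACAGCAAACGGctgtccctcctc
Fn1 EDA: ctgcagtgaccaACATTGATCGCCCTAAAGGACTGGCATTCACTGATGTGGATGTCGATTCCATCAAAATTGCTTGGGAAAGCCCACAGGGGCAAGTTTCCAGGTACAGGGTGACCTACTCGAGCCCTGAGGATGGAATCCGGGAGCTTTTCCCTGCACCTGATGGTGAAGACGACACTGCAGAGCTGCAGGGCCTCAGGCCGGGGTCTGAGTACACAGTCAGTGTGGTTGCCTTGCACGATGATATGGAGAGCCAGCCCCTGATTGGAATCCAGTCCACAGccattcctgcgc

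Cd44 transcripts differ in a run of 10 variant exons in the middle of the gene, which lengthen the stalk of the receptor. The standard form Cd44-203, with 9 exons and none of the variant exons, was at 24.7, 24.9 and 22.7 FPKM in Con, at 30.6, 28.8 and 29.7 FPKM in TNF-α and at 35.3, 31.1 and 30.4 FPKM in TNF-α+WBT. It held 74.0% to 84.5% of the gene's transcript FPKM. All its libraries with TNF-α lay above all Con libraries, but over 80149 transcripts its log2 fold change of 0.30 (SE 0.07) had an adjusted p of 0.215 by limma and was not called. Its share was 75.7% ± 1.70 in Con, 75.1% ± 0.662 in TNF-α and 79.6% ± 4.29 in TNF-α+WBT (SD, n = 3 each). In TNF-α+WBT replicate 1 the share was 84.5%, and without that library the difference from TNF-α was 1.97 in place of 4.42 percentage points.

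The values listed for the long forms of Cd44 alternated between libraries: where either was above 5 FPKM, the other was at most 0.101 FPKM. Cd44-201, which holds all 10 variant exons, was at 5.40 FPKM in Con replicate 3, 6.50 in TNF-α replicate 2, 6.16 in TNF-α+WBT replicate 1 and 6.48 in TNF-α+WBT replicate 3. Cd44-207, which holds 5 of the 10 and lacks the first to the fourth and the seventh, was listed at 0 in those 4 libraries. It was at 6.95 and 6.19 FPKM in Con replicates 1 and 2, 7.45 and 7.24 in TNF-α replicates 1 and 3 and 7.28 in TNF-α+WBT replicate 2. This alternation did not follow the groups and occurred between replicates of the same group. Whether it lies in the RNA or in how fragments were assigned to these forms was not tested. The sum of the pair, a measure chosen after the values were seen, was steadier, with means of 6.20 ± 0.787 FPKM in Con, 7.12 ± 0.551 in TNF-α and 6.64 ± 0.587 in TNF-α+WBT (SD, n = 3 each), and 14.7% to 21.3% of the gene's transcript FPKM. Both long forms end in the same last exon of 3197 bases (chr2:102811141-102814337), while that of Cd44-203 has 1791 bases (chr2:102812547-102814337). The retained-intron form Cd44-209 was at 0.328 to 2.64 FPKM. Of the other 5 annotated forms, Cd44-206 averaged 0.591 FPKM and 4 were listed at 0.

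**Figure D3:**
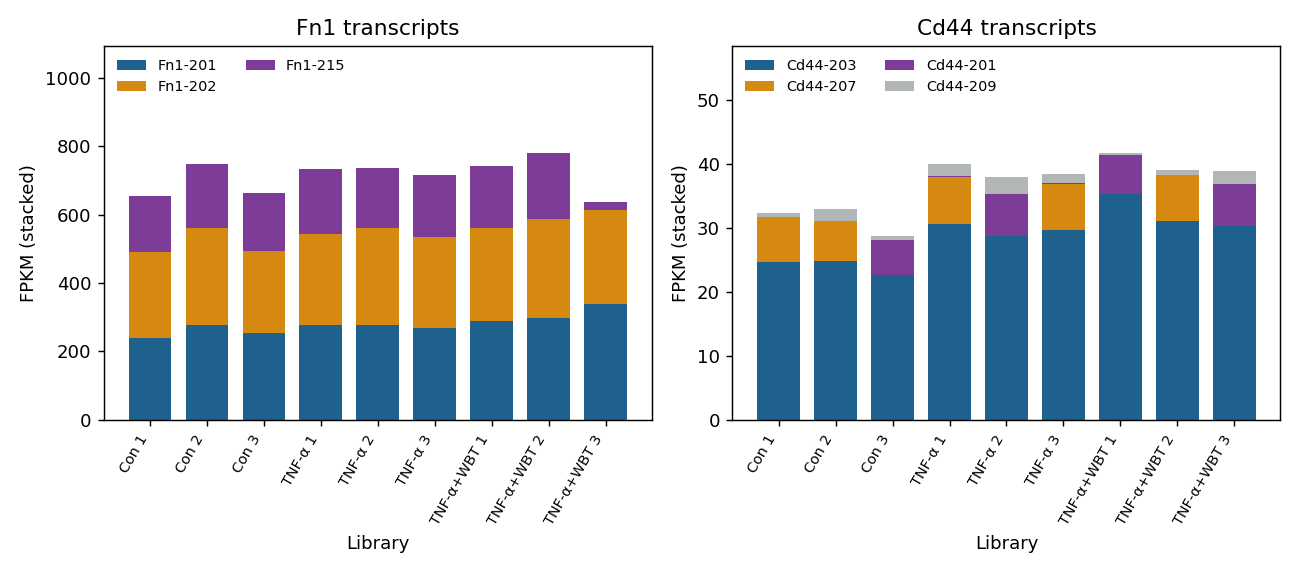
Stacked FPKM of the leading transcripts of Fn1 (left) and Cd44 (right) in each library, replicates 1 to 3 of each group. Fn1-215 drops to 24.0 FPKM in TNF-α+WBT replicate 3, and the long form in each Cd44 bar is listed almost wholly as Cd44-201 or as Cd44-207.

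A pair of variant exons that Cd44-201 holds and Cd44-207 lacks is printed to show part of what these annotated forms differ by. The third, exon 8 of 19 (chr2:102845285-102845410, 126 bases), is known for carrying the attachment site of heparan sulfate chains, and the seventh is exon 12 (chr2:102837813-102837938, 126 bases). Both are from the GENCODE M21 sequence of Cd44-201, minus strand, with the exon in capitals.
Cd44 variant exon 3: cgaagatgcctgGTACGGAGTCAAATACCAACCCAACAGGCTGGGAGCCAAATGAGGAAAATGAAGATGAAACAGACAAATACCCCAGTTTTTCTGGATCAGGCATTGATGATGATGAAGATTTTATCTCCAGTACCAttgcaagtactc
Cd44 variant exon 7: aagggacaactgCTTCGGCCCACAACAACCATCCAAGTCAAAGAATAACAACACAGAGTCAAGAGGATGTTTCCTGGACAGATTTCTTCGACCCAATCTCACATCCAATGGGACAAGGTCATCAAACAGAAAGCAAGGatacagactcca

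No Vcan transcript reached a mean of 1 FPKM, so no shares were computed. Versican is made in forms that differ in the large exons that carry chondroitin sulfate. The form with the longest coding sequence, Vcan-203 (10062 coding bases), had the highest mean, 0.284 FPKM, and was at 0.0435 to 0.362 FPKM. Vcan-206, with 7182 coding bases, was listed above 0 in TNF-α replicates 2 and 3 alone, at 0.2 and 0.458 FPKM, the libraries in which Vcan-203 was lowest. Of the 9 annotated Vcan transcripts 3 were listed at 0 in all libraries.

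Promoters, 250 bases before to 50 after a start, were found in the RefSeq table (GRCm38.p6) for 6 of the 10 genes, as 8 promoters of Sparc, Tnc, Postn, Vcan, Bgn and Cd44. Fn1, Dcn, Lum and Has2 had none there. Both strands were searched for the NF-κB consensus and for the AP-1 motif TGANTCA; none of the 8 held either, where 8.46% and 7.81% of all 32851 promoters did. Tnc and Postn have 2 promoters each, and 1 of each pair is printed because these genes were called lower. The printed ones were picked because they hold the letters TATATAA, which the promoters of Sparc, Vcan, Bgn and Cd44 do not. These letters, held by 3.24% of all 32851 promoters, were chosen after the sequences were read, so they describe the promoters and test nothing. The site begins 29 bases before the start in the Tnc promoter (chr4:64046887-64047186, minus strand) and 28 bases before it in the Postn promoter (chr3:54360857-54361156, plus strand), and is in capitals in both.
Tnc promoter: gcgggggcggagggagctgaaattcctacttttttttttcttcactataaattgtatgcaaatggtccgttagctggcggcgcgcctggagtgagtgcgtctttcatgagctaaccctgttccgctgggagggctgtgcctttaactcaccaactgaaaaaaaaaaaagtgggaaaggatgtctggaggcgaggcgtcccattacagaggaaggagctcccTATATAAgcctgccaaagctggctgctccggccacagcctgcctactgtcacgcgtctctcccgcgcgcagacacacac
Postn promoter: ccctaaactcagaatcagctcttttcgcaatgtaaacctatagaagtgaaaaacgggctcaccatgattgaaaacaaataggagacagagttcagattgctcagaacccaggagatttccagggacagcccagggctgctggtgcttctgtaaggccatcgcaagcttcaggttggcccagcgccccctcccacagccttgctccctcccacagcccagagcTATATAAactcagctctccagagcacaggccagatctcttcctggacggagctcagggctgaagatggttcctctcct

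The genes most like Fn1, Vcan and Cd44 over the 9 libraries were sought among those with a mean of at least 1 FPKM, by Pearson's r of log2(FPKM + 0.1). These r values describe 9 libraries in 3 groups, so differences between groups enter them. The genes named are those with the highest r of 12685 genes, or 12686 for Vcan. A high r picked from so many does not by itself show that genes are related. For Cd44 the genes were Zc3h12a (0.976), Serpina3g (0.971) and Cbr2 (0.971). Fn1 gave Kdm3a (0.983), Gtf2a1 (0.96) and Cant1 (0.947), and Vcan, at its low level, gave Slc2a8 (0.938), Fbxo3 (0.906) and Gm14326 (0.9). Tnc and Postn were added after their values were seen. The genes most like Tnc were Serinc5 (0.995), Tgfbi (0.994) and Sema4f (0.993), and those most like Postn were Serinc5 (0.993), Pdgfrb (0.992) and Tgfb3 (0.989).

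Other genes of the matrix were read from lists, each given as counts of called genes beside the 4.86% of all tested genes called in TNF-α against Con. Of 41 tested matrix glycoproteins beyond the 10, 3 were called higher and 4 lower (17.1%), with a median log2 fold change of -0.02. Tgfbi, which encodes a protein of the same family as periostin, went from 139 ± 3.58 to 54.8 ± 1.99 FPKM (SD, n = 3 each; log2 fold change -1.35, adjusted p 5.708e-07 by limma). Npnt (-1.49) and Matn2 (-0.43), which encode an integrin ligand and a filament protein, were lower as well, while Igfbp7 (0.85), Emilin1 (0.46) and Ccn1 (0.27) were higher. Ccn1 lost its call without the intensity trend (adjusted p 0.084). Spp1, the gene of osteopontin, was called at a log2 fold change of -0.19. Its call was lost without any of Con replicates 1 to 3 and TNF-α replicates 2 and 3, at adjusted p-values of 0.066 to 0.101, and also without the trend (0.189) and with the replicate block (0.0858).

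Among 9 other small leucine-rich proteoglycans, the class of Dcn, Lum and Bgn, 1 was called higher and 2 lower (33.3%), with a median log2 fold change of -0.25. Podnl1 went from 5.48 ± 0.549 to 9.98 ± 0.123 FPKM (log2 fold change 0.86), Prelp from 24.8 ± 1.77 to 14.7 ± 1.19 FPKM (-0.75) and Ogn from 61.7 ± 0.527 to 48.8 ± 2.17 FPKM (-0.34; SD, n = 3 each). Ogn and Prelp were more abundant than Dcn and Bgn in every library. Lecticans are the class of versican, and link proteins fix them to hyaluronan. None of 6 tested was called by limma, and 1 (Hapln1) had an unadjusted p under 0.05, as 16.1% of all tested genes did; the median was 0.22. Hapln4 was at 16.9 FPKM in Con and 15.7 in TNF-α. Hapln1 was at 0.486 and 0.847 FPKM (adjusted p 0.119, or 0.0166 when only protein-coding transcripts were summed).

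Of 15 other proteoglycan core proteins, 4 were called higher and 1 lower (33.3%), with a median log2 fold change of 0.00. Agrn (0.45) and Hspg2 (0.22) encode the basement membrane proteoglycans agrin and perlecan, and Ptprz1 (1.27, or 0.80 with a pseudocount of 1, from 0.928 to 2.35 FPKM) and Sdc4 (0.25) encode proteoglycans of the cell membrane. Gpc1, a membrane-anchored heparan sulfate proteoglycan, was lower, at 201 ± 4.32 FPKM in Con and 117 ± 3.11 in TNF-α (SD, n = 3 each; log2 fold change -0.78, adjusted p 4.442e-06 by limma). The call of Hspg2 was lost without any of Con replicates 1 and 3 and TNF-α replicates 1 and 3 (adjusted p 0.0603 to 0.0702), without the intensity trend (0.135) and with quantile normalization (0.131). That of Sdc4 was lost without any of Con replicates 2 and 3 and TNF-α replicates 2 and 3 (adjusted p 0.0512 to 0.0589), without the trend (0.101) and with the replicate block (0.0501). The count of 5 was 3 without Con replicate 3, TNF-α replicate 3 or the trend.

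For hyaluronan itself the list of synthases, hyaluronidases and binding proteins had 1 called gene of 15 tested (6.67%) and a median log2 fold change of -0.03. Its most abundant genes were Cemip2, which encodes a hyaluronan-degrading membrane protein, at 24.6 FPKM in Con and 21.7 in TNF-α (adjusted p 0.0747), and the hyaluronidase gene Hyal2 at 12.5 and 10.3 FPKM (adjusted p 0.813). The log2 fold change of Hyal2 was -0.20, and 0.12 without Con replicate 1. The called gene, Stab1, encodes a scavenger receptor and is named after its values were seen. It was at 1.53 ± 0.136 FPKM in Con and 3.06 ± 0.418 in TNF-α (SD, n = 3 each), with an adjusted p of 0.0493 by limma. Its call was lost without any of the Con and TNF-α libraries or TNF-α+WBT replicate 1, at adjusted p-values of 0.0788 to 0.157. It was also lost with a pseudocount of 1 (0.0824), without the filter (0.0635), without the trend (0.0827), with median centring (0.0509), with quantile normalization (0.0551) and with the replicate block (0.0641), and was kept in 7 of 20 alternatives.

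The enzymes that build and sulfate glycosaminoglycan chains had 3 genes called higher and 6 lower of 40 tested (22.5%), with a median log2 fold change of 0.06. Sulf2, which removes sulfate from heparan sulfate, was called at -0.37 (46.4 FPKM in Con and 35.9 in TNF-α). Ugp2 (-0.29), Extl3 (-0.28) and Chst3 (-0.26) were also lower, as were Csgalnact1 and Chst11, which fall outside the naming rule, and Chst15 (0.32), Chpf (0.25) and B3gat3 (0.24) were higher. These changes are small, and the count of 9 was 3 without Con replicate 1, Con replicate 3, TNF-α replicate 2 or TNF-α replicate 3, 5 without TNF-α replicate 1, 2 without the intensity trend and 4 with the replicate block. Chst15 lost its call without any of the 6 Con and TNF-α libraries (adjusted p 0.0521 to 0.0886). Chst3 lost it without any of Con replicates 1 and 3 and TNF-α replicates 2 and 3 (0.0821 to 0.0951). B3gat3 lost it without any library but TNF-α replicate 1 (0.057 to 0.123), and Chpf without any but TNF-α+WBT replicates 1 and 3 (0.0671 to 0.13). Without the trend the adjusted p was 0.0589 for Ugp2, 0.0677 for Extl3, 0.0684 for Chst15, 0.0815 for Chst3, 0.149 for B3gat3 and 0.144 for Chpf. With the replicate block it was 0.0779 for Chst3, 0.0883 for B3gat3 and 0.0888 for Chpf. B3gat3 was also lost with the compared groups modelled alone (0.0946). Chpf was lost without the filter (0.0505) and with quantile normalization (0.056), and had a log2 fold change of 0.15 (adjusted p 0.273) with protein-coding transcripts summed.

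Proteases of the ADAMTS family cut versican and related proteoglycans, and Timp3 inhibits them. Of 11 tested genes, 2 were called higher and 1 lower (27.3%), with a median log2 fold change of 0.13. Adamts1 went from 24.6 ± 1.18 to 60.9 ± 1.87 FPKM (log2 fold change 1.30, adjusted p 7.974e-06 by limma), and was at 56.4 ± 4.36 FPKM in TNF-α+WBT (SD, n = 3 each). Adamts4 went from 25.2 to 36.9 FPKM (0.55), and Timp3 from 51.6 to 40.3 FPKM (-0.35). The versican gene itself was at 0.425 to 0.877 FPKM in the same libraries.

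Among 13 tested matrix receptors other than Cd44, 2 were called higher and none lower (15.4%), with a median log2 fold change of 0.11. Itga8, an integrin subunit whose heterodimer binds fibronectin, tenascin-C and nephronectin, went from 1.43 ± 0.188 to 5.96 ± 0.189 FPKM (log2 fold change 1.99). Tlr2, a receptor to which biglycan binds, went from 3.35 ± 0.366 to 11.3 ± 0.456 FPKM (1.73; SD, n = 3 each). None of 10 tested regulators of the Cd44 and Fn1 exons was called by limma, and 2 (Khdrbs1 and Ptbp1, named after their values were seen) had an unadjusted p under 0.05, beside 16.1% of all tested genes; the median was 0.04. The most abundant, Hnrnpa1 and Srsf5, had log2 fold changes of -0.11 and 0.15, which ran from -0.27 to -0.10 and from 0.09 to 0.35 over the alternatives. The count of called exon regulators was 1 with quantile normalization and 1 with protein-coding transcripts summed.

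For scale, 13 of 16 genes of the TNF-α response were called higher and none lower (81.2%), with a median log2 fold change of 1.91. Among them C3 had a log2 fold change of 4.23, Ccl2 one of 2.88, Vcam1 one of 2.13 and Nfkbia one of 1.70. In TNF-α+WBT against TNF-α none of the genes in these 10 lists was called by limma. At an unadjusted p under 0.05 the counts were 7 of 41 for the other glycoproteins, 0 of 9 for the leucine-rich class, 0 of 6 for lecticans and link proteins, 1 of 15 for other core proteins (Gpc1) and 1 of 15 for hyaluronan (Has1). They were 1 of 40 for chain synthesis (Chpf), 2 of 11 for the proteases (Adamts4 and Adamts8), 4 of 13 for receptors (Itga8, Plaur, Tlr2 and Ddr2), 1 of 10 for exon regulators (Hnrnpa1) and 7 of 16 for the TNF-α response, beside 6.31% of all tested genes. Has1, Adamts8, Plaur and Ddr2 are named after their values were seen. The median of the TNF-α response in that comparison was -0.25.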

How the data were processed

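RNA-seq of 9 libraries in 3 groups of 3 (Con, TNF-α, TNF-α+WBT) was read from the gene and transcript tables of FPKM that the authors deposited. The paper's workflow names HISAT2, StringTie and Ballgown; versions, genome build and annotation were not given in the sources used here. Of the gene identifiers 98.0% and of the transcript identifiers 97.7% were found in GENCODE M21, which gave symbols, positions, exons and transcript types. The gene value equalled the sum of its transcripts, to within 0.0001 FPKM, for 54759 of 55144 genes.

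The members and lists were chosen with earlier results of these data known. The work used R 4.3.3 with limma 3.58.1, and Python 3.11.15 with scipy 1.17.1, numpy 2.4.6, pandas 2.3.3 and matplotlib 3.10.9. Genes, and likewise transcripts, with 3 or more libraries above 0 FPKM were fitted on log2(FPKM + 0.1) with 1 limma model over all 9 libraries and an intensity trend. The p-values rest on the spread between replicates and were adjusted by Benjamini-Hochberg over all tested genes or transcripts. The study's own thresholds (unadjusted p under 0.05, fold change over 2) were counted beside them. The model was tested on simulated data. Shares of transcripts were compared by exact two-sided permutation tests, adjusted over 17 transcripts.

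Depth was estimated from low values of 10661 single-transcript genes over 1000 bases in length. Converted to fragments, 55.9% to 60.2% of these came within 0.1 of a whole number, so fragment numbers are approximate. Named genes were the 10 members, the Fn1, Vcan and Cd44 transcripts with a mean of at least 1 FPKM, the 3 most correlated genes of those 3 members, and in each list up to 4 called genes in each direction with the smallest p in TNF-α against Con, or the 2 most abundant where fewer than 2 were called. Genes and transcripts outside this rule are named as such or by their low level. A marker counted as expressed above 1 FPKM in all 9 libraries, and the marker Emr4 was not found.

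Alternatives were the pseudocount, the filter, the trend, a model of the compared groups, median centring, quantile normalization, sums of transcript values, the replicate block, shares over transcripts of at least 1000 bases and each library left out. The sum of protein-coding transcripts was added after seeing the data. Replicate numbers were not used as pairs, since residuals of libraries with the same number correlated at -0.067 to 0.095.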

Additional observations from a re-analysis of the deposited data

How the results depend on the processing

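Tnc and Postn kept their direction and their call in both comparisons with Con under all 20 alternatives; log2 fold changes of TNF-α against Con were -1.25 to -1.19 and -0.65 to -0.56. Cd44 kept its direction in all 20 and its call in 18, the exceptions being no intensity trend and the loss of TNF-α replicate 1; against Con, TNF-α+WBT lost the Cd44 call without the trend alone. Members called in TNF-α+WBT against TNF-α stayed at 0. The cause of the differences below was not tested. Estimated fragments per library were 50.8 to 133 for Dcn, 68.9 to 118 for Vcan and 3.0 to 12.5 for Has2.

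Genes past the study's thresholds (615 in TNF-α against Con, 284 in TNF-α+WBT against TNF-α) numbered 128 and 8 with a pseudocount of 1, 1057 and 639 with 0.01, 207 and 14 with a mean of at least 1 FPKM, and 335 and 92 with protein-coding transcripts summed. Genes called in TNF-α+WBT against TNF-α (1) numbered 11 with a pseudocount of 0.01, 7 without the trend, 2 with the compared groups modelled, 2 with transcript values summed, 7 with protein-coding transcripts summed and 0 with the replicate block. Transcripts called in TNF-α against Con (509) numbered 209 with the replicate block. Vcan in TNF-α+WBT against Con was 0.0007 with a pseudocount of 1. With protein-coding transcripts summed, TNF-α+WBT against TNF-α was 0.16 for Fn1 and -0.0282 for Bgn.

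With single libraries left out, genes called ranged from 0 to 11 in TNF-α+WBT against TNF-α and from 588 to 817 in TNF-α+WBT against Con. Log2 fold changes of TNF-α against Con ranged from -0.24 to 0.0182 for Vcan, -0.0813 to 0.006 for Bgn, -0.40 to 0.12 for Hyal2, -1.23 to 2.30 for Cd44-201 and -1.91 to 2.18 for Cd44-207. Those of TNF-α+WBT against TNF-α ranged from -0.20 to 0.25 for Vcan, -0.0733 to 0.0884 for Bgn, -0.0396 to 0.0066 for Sparc and -0.0755 to 0.0577 for Fn1. Against Con, TNF-α+WBT ranged from -0.31 to 0.14 for Vcan, -0.11 to 0.21 for Has2 and -0.11 to 0.0542 for Bgn. Shares in TNF-α against Con differed by -0.254 to 0.44 percentage points for Fn1-201, -1.13 to 0.093 for Fn1-202, -5.97 to 5.69 for Cd44-201, -7.55 to 5.19 for Cd44-207 and -1.37 to 0.333 for Cd44-203. In TNF-α+WBT against TNF-α they differed by -0.418 to 2.61 for Fn1-202 and -0.159 to 0.395 for EDB, and in both TNF-α groups against Con by -0.64 to 0.83 for Fn1-202, -1.19 to 7.99 for Cd44-201 and -0.197 to 0.0287 for EDA.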
